A study of Homo sapiens with 6 samples.

Results

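The HOX cluster genes studied here are the protein-coding genes of SH-SY5Y cells whose symbol is HOX followed by a cluster letter and a paralog number. The rule found 17 of the 16555 protein-coding genes listed, 8 in the HOXC cluster on chromosome 12 and 9 in the HOXD cluster on chromosome 2. HOXA and HOXB genes were not analysed here. SH-SY5Y is a human neuroblastoma line with features of immature sympathetic neurons. Cells carried a lentiviral hairpin against CSB (gene ERCC6), a hairpin against CSA (gene ERCC8) or a control hairpin. All of them had been through puromycin selection and then 2 to 3 weeks of culture. There were 2 libraries in each of the 3 groups, called the CSB knockdown, the CSA knockdown and the control below, although the labels call both knockdowns mutant and the control wild type. CSA and CSB both act in transcription-coupled DNA repair, CSA in a ubiquitin ligase and CSB as a chromatin remodeller. The labels do not say whether both libraries of a group came from separate cultures, so each p-value reflects the spread of these 6 libraries, part of which may be technical.

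HOX genes encode homeodomain transcription factors that give cells along the head-to-tail axis of the embryo their positional identity. Genes of a cluster lie in the order in which they are used along that axis, with low paralog numbers at the anterior end and high numbers at the posterior end. In the neural crest, from which neuroblastoma arises, and in the spinal cord, the set of HOX genes in use reflects the axial level of origin and takes part in choosing neuronal subtype. HOX proteins bind DNA together with homeodomain cofactors of the TALE class (PBX, MEIS and PKNOX proteins). Polycomb proteins keep HOX clusters silent, Trithorax and MLL proteins keep them active, and retinoic acid opens them during development.

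The libraries held 19368272 to 26758162 reads assigned to genes. Values are scaled counts, that is, reads per gene divided by 1 size factor per library. Each hairpin lowered its target. ERCC6 stood at 258 and 302 in the CSB knockdown, 618 and 611 in the CSA knockdown, against 615 and 593 in the control (log2 fold change of CSB knockdown over control -1.11 ± 0.08 (SE), limma adjusted p = 2.13e-06). ERCC8 stood at 186 and 215 in the CSB knockdown, 61.8 and 57.2 in the CSA knockdown, against 219 and 217 in the control (log2 fold change of CSA knockdown over control -1.86 ± 0.13 (SE), limma adjusted p = 8.75e-07). All 15 neuroblastoma identity markers were listed, although TH, the first enzyme of catecholamine synthesis, was at 2.86 to 20.3. A single control library stood apart in 1 blood marker: HBB, a haemoglobin chain, had a scaled count of 373 in control replicate 2 and 0 in the other 5 libraries. PTPRC, another blood marker, had 2 and 4 reads in the control and 0 in each knockdown library. Fibroblast and stroma markers, 9 of 10 of which were listed, summed to 16830 and 17598 in the CSB knockdown, 9436 and 9820 in the CSA knockdown, against 14005 and 14310 in the control.

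All 8 HOXC genes and all 9 HOXD genes lie on the plus strand (hg38). From the deposited positions, the HOXC genes run from HOXC13 (chr12:53938765-53946544) to HOXC4 (chr12:54016931-54056030), and the HOXD genes from HOXD13 (chr2:176092891-176095938) to HOXD1 (chr2:176188579-176190907). Each of the 17 genes has the same bounds in GENCODE v29. With paralog groups 1 to 3 called anterior, 4 to 8 central and 9 to 13 posterior, 2 members were anterior, 6 central and 9 posterior. Of the 17 members, 15 reached a group mean of 1 scaled count or more and were tested, and 13 reached a mean of 10. HOXC13, a hair and nail factor, and HOXD12, a limb factor, were not tested, with at most 1 read in any library.

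Promoter sequence was at hand for 10 of the 17 members, in 9 distinct windows, since HOXC4 and HOXC5 share a start site in RefSeq. A window covers 250 bases before the start site and 50 after it (RefSeq, GRCh38.p14, plus strand). The windows shown belong to genes whose transcripts moved in opposite directions in the CSB knockdown, HOXC4 and HOXC5 against HOXD4, HOXD8 and HOXD10, and to HOXD13, which did not pass the test there. Capitals mark CG dinucleotides, the sites of DNA methylation. The windows are chr12:54016638-54016937 for HOXC4 and HOXC5, chr2:176151300-176151599 for HOXD4, chr2:176129455-176129754 for HOXD8, chr2:176116528-176116827 for HOXD10 and chr2:176092471-176092770 for HOXD13.
HOXC4 and HOXC5: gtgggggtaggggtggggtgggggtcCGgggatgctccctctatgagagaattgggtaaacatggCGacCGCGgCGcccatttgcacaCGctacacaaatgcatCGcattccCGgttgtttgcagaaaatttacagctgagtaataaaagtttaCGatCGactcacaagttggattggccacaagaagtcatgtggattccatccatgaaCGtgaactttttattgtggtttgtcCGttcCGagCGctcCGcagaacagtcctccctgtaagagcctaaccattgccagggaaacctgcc
HOXD4: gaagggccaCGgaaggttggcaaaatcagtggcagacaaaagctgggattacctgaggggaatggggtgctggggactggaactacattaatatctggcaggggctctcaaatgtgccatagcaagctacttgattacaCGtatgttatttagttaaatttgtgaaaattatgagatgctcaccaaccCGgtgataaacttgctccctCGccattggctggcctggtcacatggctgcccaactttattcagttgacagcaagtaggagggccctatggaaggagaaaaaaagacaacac
HOXD8: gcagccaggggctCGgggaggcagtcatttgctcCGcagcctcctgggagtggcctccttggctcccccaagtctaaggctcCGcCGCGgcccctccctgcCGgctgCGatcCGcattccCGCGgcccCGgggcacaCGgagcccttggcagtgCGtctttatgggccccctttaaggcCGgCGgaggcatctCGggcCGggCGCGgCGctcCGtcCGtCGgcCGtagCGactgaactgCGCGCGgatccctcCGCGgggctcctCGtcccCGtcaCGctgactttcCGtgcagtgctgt
HOXD10: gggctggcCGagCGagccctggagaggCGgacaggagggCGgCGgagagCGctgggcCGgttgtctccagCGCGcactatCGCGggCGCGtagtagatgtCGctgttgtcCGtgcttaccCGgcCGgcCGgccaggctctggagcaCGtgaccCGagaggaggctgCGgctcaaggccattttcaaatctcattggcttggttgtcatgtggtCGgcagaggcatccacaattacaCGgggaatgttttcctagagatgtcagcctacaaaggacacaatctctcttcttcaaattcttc
HOXD13: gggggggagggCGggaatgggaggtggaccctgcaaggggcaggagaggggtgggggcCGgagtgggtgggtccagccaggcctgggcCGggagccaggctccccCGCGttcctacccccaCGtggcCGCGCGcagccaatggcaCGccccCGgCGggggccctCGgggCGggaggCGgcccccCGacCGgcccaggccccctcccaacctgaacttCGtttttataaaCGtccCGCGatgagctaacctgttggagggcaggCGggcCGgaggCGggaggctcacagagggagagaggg
The shared HOXC4 and HOXC5 window holds 15 CG dinucleotides, close to the median of 14 over 34943 RefSeq promoters of the same length. HOXD8 has 34 and HOXD10 has 23, whereas HOXD4, which fell with them, has 4. HOXD13 has 24, and it was not called in the CSB knockdown. Motifs were searched on both strands. TATAAA, the TATA box, occurs in 11.6% of all windows. The HOXD13 window holds 2 matches, which overlap on opposite strands of the same stretch and so mark a single site. None was found in the other members' windows. TAATTA, a homeodomain core site, occurs in 4.84% of all windows and in the HOXD3 and HOXD11 windows. TGATNNAT, a composite site of HOX and PBX proteins, occurs in 7.42% of all windows and in that of HOXD11. The direct repeat read by retinoic acid receptors, spaced by 5 bases, was in none of the 9 windows and in 0.00572% of all windows. The RefSeq start differs from the deposited gene start by -43 bases at HOXC4, 11 at HOXD8, -170 at HOXD13 and 328 at HOXD4. It differs by 7988 at HOXD10, where the deposited gene starts further upstream, and by -15965 at HOXC5, whose deposited start lies far downstream of the window.

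Per kilobase of gene length, HOXD9 was the most abundant member in each group, with 757 ± 37.2 in the CSB knockdown, 1250 ± 141 in the CSA knockdown and 1176 ± 55.1 in the control (mean ± SD, n = 2). HOXD8 came next with 464 ± 2.45 in the CSB knockdown, 601 ± 16.9 in the CSA knockdown and 532 ± 15.0 in the control. HOXC4 followed with 379 ± 29.01 in the CSB knockdown, 255 ± 1.22 in the CSA knockdown and 274 ± 9.82 in the control. No other member exceeded 102 per kilobase in any group. Thus 1 gene carried most of the HOXC level and a neighbouring pair most of the HOXD level. HOXC4 held 61.6% of the summed HOXC level per kilobase in the CSB knockdown, 65.8% in the CSA knockdown and 64.0% in the control. HOXD9 held 57.6% of the HOXD level in the CSB knockdown, 63.1% in the CSA knockdown and 63.5% in the control, and HOXD8 held 35.2% in the CSB knockdown, 30.3% in the CSA knockdown and 28.7% in the control. Within HOXC, HOXC5 was at 9.03 to 27.2 per kilobase over the group means and HOXC8 at 3.49 to 14.3, and the posterior HOXC10, HOXC11 and HOXC13 were at or below 3.36 in each group. Within HOXD, levels were low on both sides of HOXD8 and HOXD9. HOXD1 was at 6.34 to 7.32 per kilobase, HOXD3 at 8.06 to 12.5, HOXD4 at 24.6 to 42.5, HOXD10 at 26.98 to 50.1, HOXD11 at 3.91 to 7.66 and HOXD13 at 21.4 to 25.4. HOXC6 was at 66.4 to 102 and HOXC9 at 53.7 to 88.6, and their order within a group was the same in all 3 groups, although in the CSB knockdown HOXC6 and HOXC9 (102 ± 3.69 and 88.6 ± 13.04) lay within about 1 SD of each other.

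**Figure D1:**
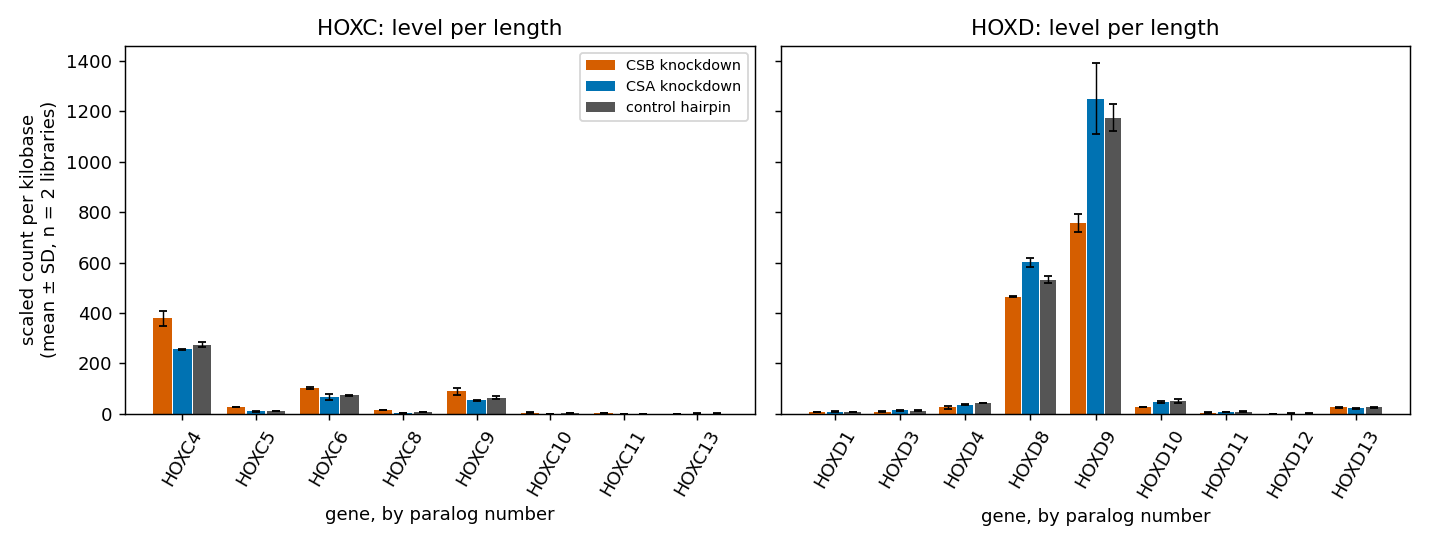
Scaled count per kilobase of gene length for each HOXC (left) and HOXD (right) gene, as bars for the mean and error bars for the SD of 2 libraries in the CSB knockdown, the CSA knockdown and the control. HOXD9, HOXD8 and HOXC4 tower over the other members, and in the CSB knockdown the HOXC4 bar is the tallest of its 3 (379) while the HOXD9 bar is the lowest of its 3 (757).

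The balance between the clusters differed in the CSB knockdown. Summed over the cluster, HOXC scaled counts were 1678 and 1580 in the CSB knockdown, 1016 and 1073 in the CSA knockdown, against 1114 and 1173 in the control. HOXD sums were 2897 and 2801 in the CSB knockdown, 4007 and 4423 in the CSA knockdown, against 4002 and 3847 in the control. The CSB knockdown libraries were thus the highest for HOXC and the lowest for HOXD, with no overlap with any other library. The ratio of HOXD to HOXC, which does not depend on how libraries are scaled, was 1.73 and 1.77 in the CSB knockdown, 3.95 and 4.12 in the CSA knockdown, against 3.59 and 3.28 in the control (mean ± SD 1.75 ± 0.0329 in the CSB knockdown, 4.03 ± 0.125 in the CSA knockdown and 3.44 ± 0.222 in the control, n = 2). The control thus lay between the knockdowns, nearer to the CSA knockdown. Both the central and the posterior HOXC sums were higher in the CSB knockdown, but the posterior sums were mostly HOXC9 (133 and 164 there). Central HOXC sums were 1533 and 1405 in the CSB knockdown, 928 and 979 in the CSA knockdown, against 1013 and 1056 in the control. Posterior HOXC sums were 145 and 175 in the CSB knockdown, 87.8 and 93.5 in the CSA knockdown, against 101 and 117 in the control. In HOXD, the central sums were 1245 and 1265 in the CSB knockdown, 1600 and 1665 in the CSA knockdown, against 1489 and 1434 in the control. The posterior HOXD sums were 1606 and 1499 in the CSB knockdown, 2339 and 2708 in the CSA knockdown, against 2462 and 2353 in the control. In bulk RNA, fewer cells of a type and less RNA per cell cannot be told apart.

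**Figure D2:**
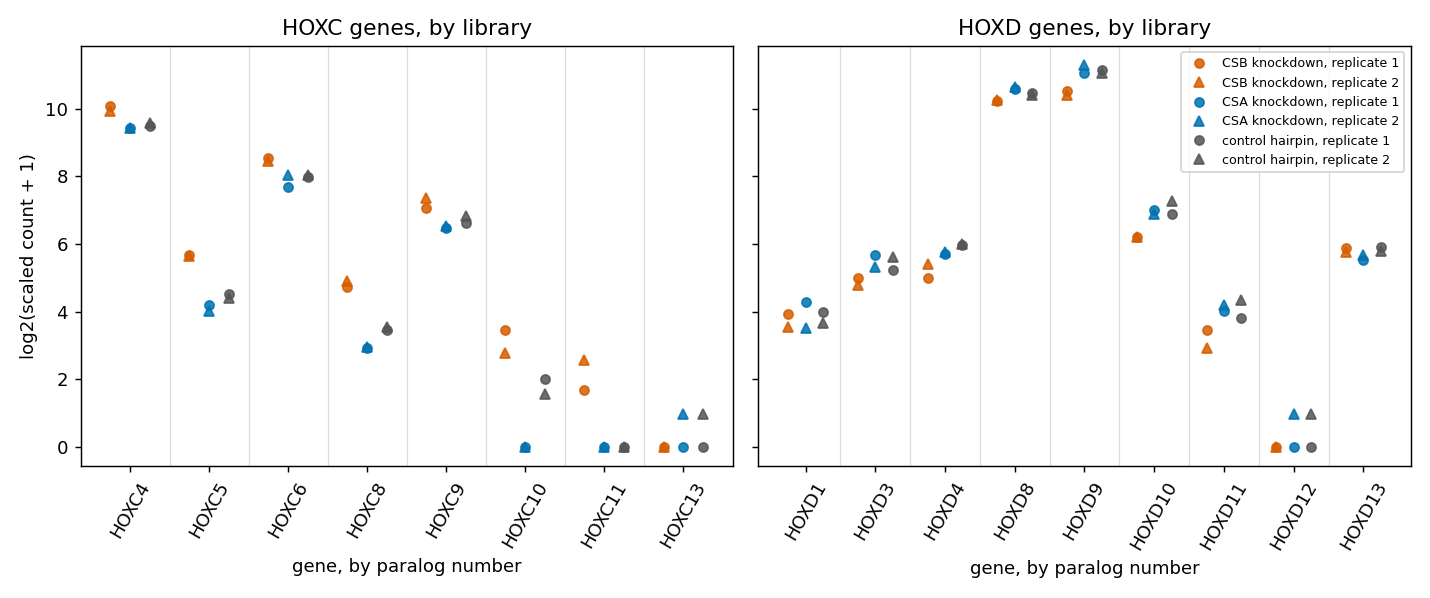
Level of each HOXC (left) and HOXD (right) gene in every library, as log2(scaled count + 1), with genes ordered by paralog number, colour for the group and marker shape for the replicate. From HOXC4 to HOXC11 both CSB knockdown libraries lie above both control libraries, and from HOXD3 to HOXD11 they lie below them, while HOXD1 and HOXD13 overlap.

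The first question was which HOX genes differed when CSB was lowered. In the CSB knockdown against the control, 6 of the 7 tested HOXC genes rose and none fell, and 4 of the 8 tested HOXD genes fell and none rose (limma, adjusted p below 0.05). Over all 28388 genes tested, 14.8% rose and 8.86% fell, 23.6% in all. HOXC11 is among the 6 and passed the low-value filter through the CSB knockdown alone. Leaving HOXC11 aside, HOXC4, HOXC5, HOXC6, HOXC8 and HOXC9 rose and HOXC10 did not pass. The values of both groups did not overlap for 13 of the 15 tested members, against 58.7% of all genes. By edgeR 5 HOXC genes rose and 4 HOXD genes fell, and by DESeq2 3 HOXC genes rose and 3 HOXD genes fell. Over all 28388 genes, edgeR called 3644 up and 3624 down, and DESeq2 called 2212 up and 2880 down. DESeq2 gave no adjusted p for HOXC8, HOXC10, HOXC11, HOXD1 and HOXD11. No HOXC gene fell and no HOXD gene rose by any of these tools, nor at an unadjusted p below 0.05. The median log2 fold change was 0.49 for HOXC genes, with HOXC11 set at its lower bound (1.18 as fitted), and -0.59 for HOXD genes, against 0.10 for all genes. Scaled with TMM factors, the share of rises among all calls was 47.7% in place of 62.5% (3008 up and 3304 down), while 5 HOXC genes rose and 4 HOXD genes fell. The 5 were HOXC4, HOXC5, HOXC6, HOXC8 and HOXC11, the last tested only through its CSB knockdown reads.

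Among central HOXC genes, HOXC4, which in mice helps B cells to switch antibody class, had scaled counts of 1088 and 976 in the CSB knockdown, 698 and 693 in the CSA knockdown, against 727 and 765 in the control. It rose in the CSB knockdown (log2 fold change 0.47 ± 0.07 (SE), adjusted p = 0.000334), the most significant change of a HOXC gene. HOXC5, which in mice is needed with Hoxa5 by the motor neurons of the diaphragm, had 49.5 and 48.7 in the CSB knockdown, 17.3 and 15.3 in the CSA knockdown, against 21.9 and 20.3 in the control. It rose by 1.18 ± 0.27 on the log2 scale (adjusted p = 0.00743), and its libraries agreed closely within each group. HOXC6, a marker of forelimb-level motor neurons in mice, had 370 and 351 in the CSB knockdown, 206 and 264 in the CSA knockdown, against 254 and 260 in the control, where the CSA knockdown replicates spread around the control. It rose by 0.49 ± 0.11 (adjusted p = 0.0073). HOXC8, which patterns forelimb motor pools and sensory connections in mice, had 25.3 and 28.9 in the CSB knockdown, 6.50 and 6.68 in the CSA knockdown, against 9.95 and 10.6 in the control. It rose by 1.31 ± 0.37 (adjusted p = 0.0231). HOXC5 and HOXC8, which were low, had larger estimates on the log2 scale than HOXC4 and HOXC6, which were high, a difference that was not tested.

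Among posterior HOXC genes, HOXC9, a thoracic-level gene that promotes neuronal differentiation of neuroblastoma cells in culture, had 133 and 164 in the CSB knockdown, 87.8 and 92.5 in the CSA knockdown, against 98.5 and 114 in the control. It rose by 0.48 ± 0.15 (adjusted p = 0.0358), the highest adjusted p of the calls. It passed in edgeR (adjusted p = 0.0203) and did not pass with TMM factors (adjusted p = 0.0795), with upper-quartile factors (adjusted p = 0.0771) or in DESeq2 (adjusted p = 0.208). HOXC10, a lumbar-level gene in mice, had 9 and 7 reads in the CSB knockdown, 0 and 0 in the CSA knockdown, against 3 and 2 in the control. Its ratio of CSB knockdown to control was 3.08 (exact 95% interval 1.08 to 10.8) and did not pass the test (adjusted p = 0.128). HOXC11 had 2 and 6 reads in the CSB knockdown and 0 in each of the other 4 libraries. Its CSB knockdown mean was 1.22-fold a floor of 3 reads per control library, but CSB knockdown replicate 1, at 2 reads, was under that floor. HOXC11 was tested only through those CSB knockdown reads, so its p-values add no support (limma adjusted p = 0.0262, edgeR adjusted p = 0.063). Counting error is all that such intervals and floors include. HOXC13 had 0 reads in both CSB knockdown libraries and 0 and 1 in the control.

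HOXC4 and HOXC6 share exons with each other in GENCODE v29, and each also overlaps a further entry named HOXC5. The HOXC5 gene measured here shares exons with AC012531.2 and with another entry of its own name, but not with HOXC4 or HOXC6. Of the exonic bases, 17.8% of HOXC4, 59.9% of HOXC5 and 15.7% of HOXC6 lie in another gene on the same strand. With the counting tool not stated, reads in shared bases may have gone to any gene that holds them. HOXC4 and HOXC6 are thus not independent measurements. HOXC8, with no shared exonic base, and HOXC9, with 4.35% on the same strand and 9.71% opposite HOXC-AS2, share little or nothing. The part of shared exons in the HOXC result was not tested.

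**Figure D3:**
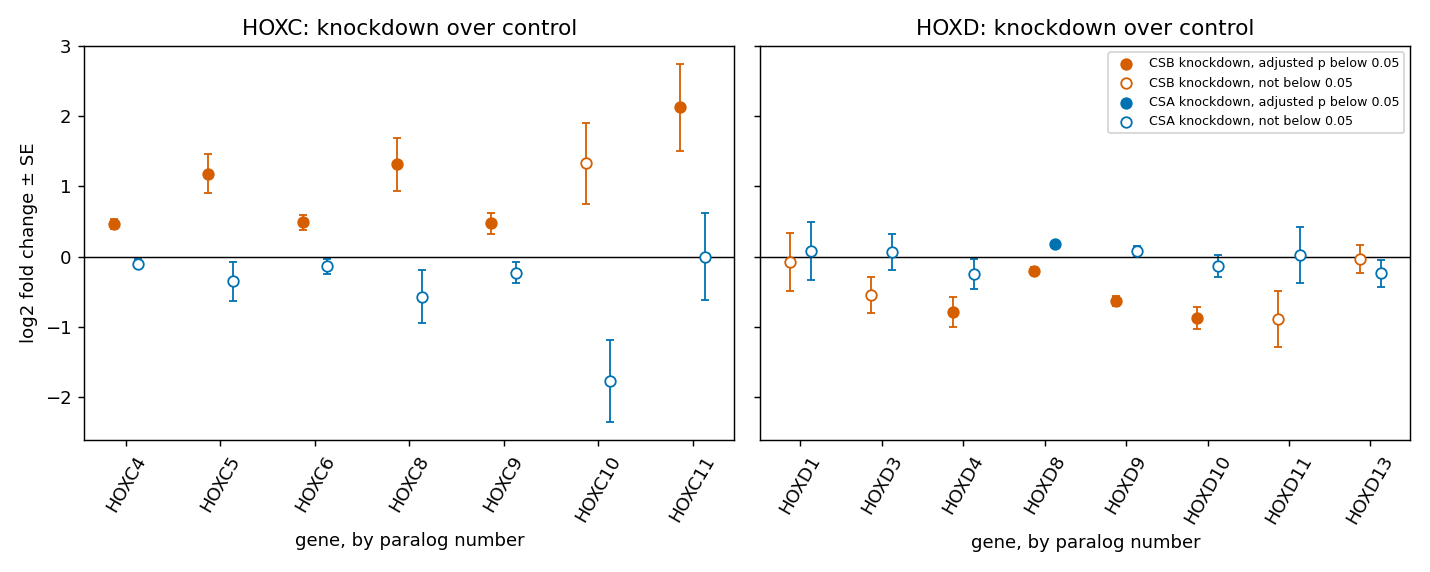
Log2 fold change ± SE (limma, log2(scaled count + 1)) of the CSB knockdown and of the CSA knockdown over the control for each tested HOXC (left) and HOXD (right) gene, with filled points where the adjusted p was below 0.05. The CSB knockdown points are above 0 for the 7 HOXC genes and below 0 for the 8 HOXD genes, while in the CSA knockdown only HOXD8 is filled; the points of HOXC10 and HOXC11 depend on the pseudocount, since a group had no reads.

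In HOXD, the anterior genes did not pass the test in the CSB knockdown. HOXD1, which in mice shapes pain-sensing neurons, had 14.3 and 10.7 in the CSB knockdown, 18.4 and 10.5 in the CSA knockdown, against 14.9 and 11.6 in the control, and all groups overlapped (log2 fold change -0.08 ± 0.41, adjusted p = 0.930). HOXD3, which acts on cell adhesion and in mice on the neck vertebrae, had 30.8 and 26.4 in the CSB knockdown, 49.9 and 39.1 in the CSA knockdown, against 36.8 and 48.2 in the control. Both CSB knockdown libraries were below the control, but the difference of -0.55 ± 0.25 did not pass (adjusted p = 0.152).

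The central genes HOXD4 and HOXD8 and the posterior genes HOXD9 and HOXD10 fell. HOXD4, a hindbrain gene induced by retinoic acid, had 30.8 and 41.3 in the CSB knockdown, 50.9 and 53.4 in the CSA knockdown, against 61.7 and 62.7 in the control (log2 fold change -0.78 ± 0.21, adjusted p = 0.0188, DESeq2 adjusted p = 0.05415). HOXD8 had 1214 and 1224 in the CSB knockdown, 1549 and 1612 in the CSA knockdown, against 1427 and 1372 in the control. Its fall in the CSB knockdown was small and its replicates were tight (log2 fold change -0.20 ± 0.05, adjusted p = 0.0191). HOXD9, a posterior gene of limb and lumbar spinal cord in mice, had 1465 and 1367 in the CSB knockdown, 2151 and 2523 in the CSA knockdown, against 2272 and 2126 in the control. It fell by 0.63 on the log2 scale (SE 0.07, adjusted p = 5.99e-05), the lowest adjusted p of a HOX gene in this comparison. HOXD10, which marks lumbar motor neurons in mice, had 72.7 and 72.6 in the CSB knockdown, 128 and 116 in the CSA knockdown, against 117 and 152 in the control, and fell by 0.87 (SE 0.16, adjusted p = 0.00133).

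The most posterior HOXD genes were not called. HOXD11, a gene of forearm and kidney in mice, had 9.91 and 6.60 in the CSB knockdown, 15.2 and 17.2 in the CSA knockdown, against 12.9 and 19.3 in the control. The ratio of reads between CSB knockdown and control was 0.496 (exact 95% interval 0.259 to 0.917), but over replicates the difference did not pass (log2 fold change -0.88 ± 0.40, adjusted p = 0.144). HOXD13, the digit gene mutated in human synpolydactyly, had 58.4 and 52.8 in the CSB knockdown, 45.5 and 50.5 in the CSA knockdown, against 59.7 and 54.0 in the control. The CSB knockdown and the control overlapped (log2 fold change -0.03 ± 0.19, adjusted p = 0.944). The 4 called genes lie between HOXD4 and HOXD10, but HOXD11 had an estimate as low as that of HOXD10, and whether genes at the ends of the cluster differed from those in the middle was not tested.

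Counts of HOXD genes have overlaps of their own. In GENCODE v29, 80.5% of the exonic bases of HOXD4 and 62.2% of those of HOXD3 lie in AC009336.2 on the same strand. The deposited tables list a protein-coding AC009336.19 over the same stretch, and it fell too (35.2 and 37.1 in the CSB knockdown, 57.4 and 49.6 in the CSA knockdown, against 70.6 and 65.6 in the control, log2 fold change -0.89 ± 0.20, adjusted p = 0.00585). HOXD1 is 58.1% opposite AC009336.3 and HAGLR, and 16.8% of HOXD10 and 21.4% of HOXD11 are mutual. HOXD8 and HOXD9 share no exonic base.

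Calls in the CSB knockdown depended on which libraries were kept. Without control replicate 1, HOXC4 had an adjusted p of 0.0651, and it passed with any other library left out. Leaving out any one of the 4 CSB knockdown and control libraries gave adjusted p-values of 0.0686 to 0.0885 for HOXC5, 0.158 to 0.219 for HOXC6, 0.0901 to 0.106 for HOXC8 and 0.092 to 0.145 for HOXD8. Leaving out any of the 6 gave 0.0941 to 0.262 for HOXC9 and 0.0505 to 0.154 for HOXD4. HOXC11 did not pass without control replicate 1 (0.104) or control replicate 2 (0.1085). HOXD9 did not pass without control replicate 1 (0.0667), CSB knockdown replicate 1 (0.0628) or CSB knockdown replicate 2 (0.0991), nor did HOXD10 without control replicate 2 (0.0653), CSB knockdown replicate 1 (0.103) or CSB knockdown replicate 2 (0.118). Without a CSB knockdown or control library the calls over all genes numbered 1773 to 2490, against 6706 with all 6 libraries. Apart from HOXC11, none of the called HOX genes changed sign when a library was left out. HOXC11 had no reads outside the CSB knockdown, so its sign could not turn.

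The second question was which of them differed when CSA was lowered. In the CSA knockdown against the control, 1 of the 15 tested members rose (HOXD8) and none fell (limma, adjusted p below 0.05), while over all genes 8.37% rose and 10.4% fell, 18.8% in all. At an unadjusted p below 0.05, HOXC10 fell as well. By edgeR none fell, and by DESeq2 none of the members given an adjusted p fell. DESeq2 gave no adjusted p for HOXC8, HOXC10, HOXC11, HOXD1 and HOXD11. Over all genes edgeR called 3068 up and 3051 down, and DESeq2 called 1774 up and 2338 down. Values of both groups did not overlap for 8 of the 15 tested members, against 53.5% of all genes. HOXD8 rose by 0.18 ± 0.05 (adjusted p = 0.0428), with both CSA knockdown libraries above both control libraries. The call was lost in DESeq2 (adjusted p = 0.091), with no filter on low values (adjusted p = 0.0526), with only both groups in the fit (adjusted p = 0.0745) and with any library left out (adjusted p 0.0601 to 0.225).

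The median log2 fold change in the CSA knockdown was -0.23 over the 5 HOXC genes above the read floor in a group and 0.05 over the 8 HOXD genes, against 0.00 for all genes. All 5 of those HOXC genes had values below 0: HOXC4 -0.10 ± 0.07 (adjusted p = 0.373), HOXC5 -0.35 ± 0.27 (adjusted p = 0.444), HOXC6 -0.14 ± 0.11 (adjusted p = 0.463), HOXC8 -0.57 ± 0.37 (adjusted p = 0.351) and HOXC9 -0.23 ± 0.15 (adjusted p = 0.344). None of them passed the test, and without CSA knockdown replicate 1 the HOXC6 value turned to 0.04. HOXC10, with no reads in either CSA knockdown library and 3 and 2 in the control, was at or under the floor of 3 reads per library in both groups (adjusted p = 0.0529), and no fold is given. The HOXC9 and HOXD10 differences, at -0.23 for HOXC9 and -0.13 for HOXD10, were within 2 SE of 0, as were those of HOXD1, HOXD3, HOXD4, HOXD9, HOXD11 and HOXD13, at -0.25 to 0.08.

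The comparison of both knockdowns tests the difference between them directly. In the CSB knockdown against the CSA knockdown all 7 tested HOXC genes rose and 3 of the 8 tested HOXD genes fell, while over all genes 18.1% rose and 11.3% fell (29.4% in all). HOXC11 and HOXC10 had no reads in the CSA knockdown, and HOXC11 was tested only through its reads in the CSB knockdown. Without HOXC11 all of the other HOXC genes tested still rose, 6 in number. Values did not overlap for 14 of the 15 tested members, against 60.2% of all genes. The median log2 fold change was 0.71 for HOXC genes with HOXC10 and HOXC11 at their bounds (1.54 as fitted), -0.57 for HOXD genes and 0.09 for all genes. With TMM factors the share of rises among all calls was 50.6% in place of 61.5%, with the same 7 HOXC rises and 3 HOXD falls in number. These 7 again include HOXC11. This comparison shares its CSB knockdown libraries with the first and its CSA knockdown libraries with the second.

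Gene by gene, HOXC4 was higher by 0.57 ± 0.07 (adjusted p = 4.25e-05), HOXC5 by 1.54 ± 0.27 (adjusted p = 0.000949) and HOXC6 by 0.63 ± 0.11 (adjusted p = 0.000989) in the CSB knockdown. HOXC8 differed by 1.89 ± 0.37 (adjusted p = 0.00201), on 58 reads in the CSB knockdown against 13 in the CSA knockdown (ratio 4.15, exact 95% interval 2.25 to 8.25), and HOXC9 differed by 0.71 ± 0.15 (adjusted p = 0.00297). HOXC10 was at least 2.57-fold higher in the CSB knockdown than a floor of 3 reads per CSA knockdown library (adjusted p = 0.00129). The CSB knockdown mean of HOXC11 was 1.17-fold that floor, with CSB knockdown replicate 1 under it at 2 reads (limma adjusted p = 0.0212, edgeR adjusted p = 0.0582). In HOXD, HOXD8 was lower in the CSB knockdown by 0.37 (log2 fold change -0.37 ± 0.05, adjusted p = 0.000198), HOXD9 by 0.72 (-0.72 ± 0.07, adjusted p = 1.12e-05) and HOXD10 by 0.74 (-0.74 ± 0.16, adjusted p = 0.0029). HOXD3 (-0.61 ± 0.25, adjusted p = 0.0942) and HOXD4 (-0.54 ± 0.21, adjusted p = 0.0856) did not pass by limma and passed by edgeR (adjusted p = 0.0234 for HOXD3 and 0.0415 for HOXD4). HOXD1 (adjusted p = 0.816), HOXD11 (adjusted p = 0.116) and HOXD13 (adjusted p = 0.480) did not pass.

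HOXC4, HOXC5, HOXC8, HOXC10 and HOXD8 passed in this comparison with any 1 library left out. HOXC6 did not without CSB knockdown replicate 1 (adjusted p = 0.122) or 2 (0.1175), and HOXC9 did not without CSA knockdown replicate 1 (0.0742) or 2 (0.0819) or CSB knockdown replicate 2 (0.0942). HOXC11 did not without CSA knockdown replicate 1 (0.0718) or 2 (0.0655), HOXD9 without CSB knockdown replicate 2 (0.0605), nor HOXD10 without any one of the 4 libraries compared (0.0748 to 0.123).

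The neighbourhood of each cluster was read out to 250 kb on either side. Inside the HOXD cluster, 7 other transcripts were tested, of which 3 fell and none rose in the CSB knockdown against the control, where 8.86% of all genes fell and 14.8% rose. The counts were the same in edgeR and DESeq2. These were AC009336.19, given above, and 2 antisense transcripts, HOXD-AS2 and HAGLR. HOXD-AS2, antisense across HOXD9 and HOXD8, had 36.3 and 53.6 in the CSB knockdown, 79.1 and 95.4 in the CSA knockdown, against 83.5 and 82.0 in the control (log2 fold change -0.89 ± 0.21, adjusted p = 0.00765). HAGLR, which starts beside HOXD1, had 449 and 449 in the CSB knockdown, 537 and 538 in the CSA knockdown, against 578 and 580 in the control (log2 fold change -0.37 ± 0.07, adjusted p = 0.00152). None of the 3 passed the test in the CSA knockdown against the control. HOXD1, which overlaps HAGLR, is too low to set against it, since its own estimate of -0.08 has an SE of 0.41. MIR10B, a microRNA gene just upstream of HOXD4, had scaled counts of 7.72 to 15.9 over the 6 libraries and was not called.

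Inside HOXC, none of the 4 other tested transcripts was called in the CSB knockdown by limma, edgeR or DESeq2, nor at an unadjusted p below 0.05. HOTAIR, a long noncoding RNA that has been tied to Polycomb silencing of HOXD, had 4 and 11 reads in the CSB knockdown, 4 and 1 in the CSA knockdown, against 1 and 3 in the control (log2 fold change 1.40 ± 0.67, adjusted p = 0.164). In scaled counts it had 4.404 and 9.08 in the CSB knockdown, 4.34 and 0.954 in the CSA knockdown, against 0.995 and 2.89 in the control, so the lowest CSB knockdown library lay just above the highest of the others. HOXC-AS1, antisense within the HOXC9 gene, had 28.6 and 9.90 in the CSB knockdown, 5.42 and 12.4 in the CSA knockdown, against 12.9 and 12.5 in the control, and the CSB knockdown libraries lay on both sides of the control. AC012531.25, within HOXC4, was at 24.2 and 24.8 in the CSB knockdown, 30.3 and 16.2 in the CSA knockdown, against 27.9 and 30.9 in the control (log2 fold change -0.25 ± 0.33, adjusted p = 0.655).

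Outside the clusters the direction of the HOX genes was not shared by all neighbours. Beside HOXD, 0 of the 5 tested flanking genes was called in the CSB knockdown by limma, and 1 fell at an unadjusted p below 0.05, by edgeR and by DESeq2. KIAA1715, which encodes the endoplasmic reticulum protein lunapark, differed by -0.03 ± 0.06 (adjusted p = 0.786), and MTX2, a mitochondrial import protein, by -0.19 ± 0.06 (adjusted p = 0.0512). EVX2, a homeobox gene next to HOXD13, had 2 and 5 reads in the CSB knockdown, 14 and 12 in the CSA knockdown, against 3 and 5 in the control. Both CSA knockdown libraries were above the rest, the CSA knockdown did not pass against the control (log2 fold change 1.56 ± 0.52, adjusted p = 0.0562), and the CSB knockdown was lower than the CSA knockdown (-1.81 ± 0.52, adjusted p = 0.0189).

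Beside HOXC, 3 of 18 tested flanking genes rose and 2 fell in the CSB knockdown, near the shares over all genes (14.8% rose and 8.86% fell). With TMM or upper-quartile factors and in DESeq2, 2 rose and 2 fell. CALCOCO1, an autophagy receptor, rose by 0.55 ± 0.06 (adjusted p = 5.37e-05), FLJ12825 by 0.73 ± 0.22 (adjusted p = 0.032) and RP11-834C11.4 by 0.57 ± 0.07 (adjusted p = 0.000119). CBX5, heterochromatin protein HP1 alpha, fell by 0.42 (log2 fold change -0.42 ± 0.05, adjusted p = 6.82e-05) and COPZ1, a coatomer subunit, by 0.19 (-0.19 ± 0.06, adjusted p = 0.0238). In the CSA knockdown CALCOCO1 (0.48 ± 0.06), RP11-834C11.4 (0.33 ± 0.07) and the uracil glycosylase gene SMUG1 (0.36 ± 0.06) rose and CBX5 fell (-0.29 ± 0.05), with adjusted p-values of 0.000201 to 0.00669. CALCOCO1 and CBX5 thus moved one way in both knockdowns, which share their control, while the HOXC genes differed between the knockdowns as given above.

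**Figure D4:**
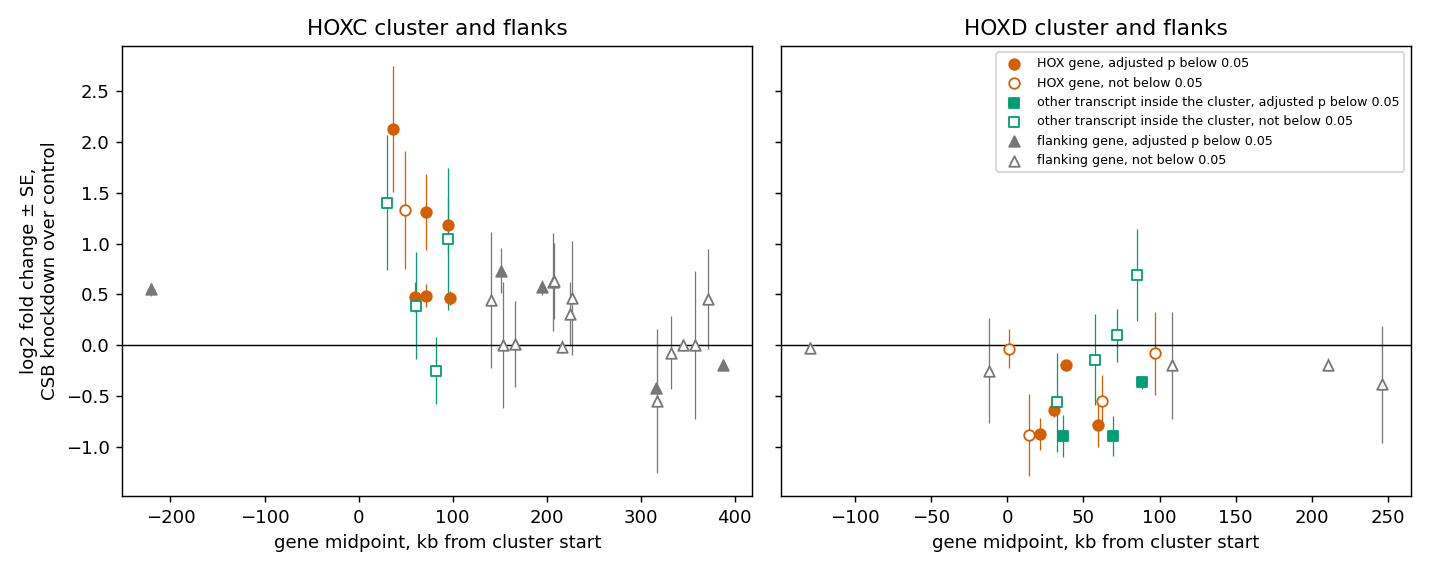
Log2 fold change ± SE of the CSB knockdown over the control for each tested gene in the HOXC (left) and HOXD (right) regions, by distance of the gene's midpoint from the cluster start in kb, with circles for HOX genes, squares for other transcripts inside the cluster and triangles for flanking genes, filled where the adjusted p was below 0.05. HOXC circles lie above 0 and HOXD circles at or below 0, and the nearest flanking triangles of HOXD are open.

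Genes that act with HOX proteins or on HOX clusters were counted from fixed lists. Over all genes limma called 14.8% up and 8.86% down in the CSB knockdown, and 8.37% up and 10.4% down in the CSA knockdown. Of 11 TALE cofactor genes, 5 rose and 1 fell in the CSB knockdown, and 1 rose and 5 fell in the CSA knockdown. TGIF1, a TALE repressor of retinoid and TGF-beta signalling, had 838 and 861 in the CSB knockdown, 301 and 335 in the CSA knockdown, against 418 and 458 in the control (0.96 ± 0.08 in the CSB knockdown, adjusted p = 4.29e-06, and -0.46 ± 0.08 in the CSA knockdown, adjusted p = 0.00135). The HOX partner PBX3 (0.42 ± 0.07) rose in the CSB knockdown, and so did MEIS3 (0.28 ± 0.05). In the CSA knockdown TGIF2 fell (-0.52 ± 0.07), PKNOX1 fell (-0.28 ± 0.07) and PBX2 rose (0.36 ± 0.06). PKNOX1 fell (-0.22 ± 0.07) and PBX2 rose (0.20 ± 0.06) in the CSB knockdown as well.

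Of 35 Polycomb genes, 9 rose and 5 fell in the CSB knockdown and 2 rose and 7 fell in the CSA knockdown. The shares over all genes were 14.8% up and 8.86% down in the CSB knockdown, and 8.37% up and 10.4% down in the CSA knockdown. SUZ12 and EED, core subunits of the complex that methylates histone H3 at lysine 27, fell in the CSB knockdown (-0.78 ± 0.05 for SUZ12 and -0.49 ± 0.07 for EED), and SUZ12 stood at 908 and 908 there, 1644 and 1688 in the CSA knockdown, against 1593 and 1534 in the control. EZH2, the catalytic subunit, stood at 3004 and 3023 in the CSB knockdown, 2115 and 2061 in the CSA knockdown, against 2985 and 2919 in the control, and fell in the CSA knockdown (-0.50 ± 0.05, adjusted p = 1.64e-05). Of the ring-finger subunits, PCGF5 fell (-0.93 ± 0.07) and PCGF1 rose (0.70 ± 0.06) in the CSB knockdown. In the CSA knockdown CBX2 (-0.43 ± 0.06) and KDM2B (-0.30 ± 0.06) fell. With TMM factors 8 Polycomb genes fell in the CSB knockdown in place of 5. Of 26 Trithorax and MLL genes, 12 rose and 3 fell in the CSB knockdown, and 4 rose and 7 fell in the CSA knockdown. MLLT1 (0.76 ± 0.05), KMT2B (0.52 ± 0.05) and SETD1B (0.44 ± 0.06) rose and PSIP1 (-0.73 ± 0.06), which tethers MLL complexes to chromatin, fell in the CSB knockdown. The H3 lysine 27 demethylase KDM6B rose in the CSA knockdown (0.61 ± 0.05) and PAXIP1 fell (-0.54 ± 0.07). KDM6B rose in the CSB knockdown as well (0.37 ± 0.05). In the CSA knockdown KMT2B also rose (0.22 ± 0.05) and PSIP1 also fell (-0.27 ± 0.06), while MLLT1 fell there (-0.18 ± 0.05).

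Of 22 retinoic acid genes tested, 8 rose and 2 fell in the CSB knockdown and 5 rose and 5 fell in the CSA knockdown. The shares over all genes were 14.8% up and 8.86% down in the CSB knockdown, and 8.37% up and 10.4% down in the CSA knockdown. In the CSB knockdown the number risen was 6 with TMM or upper-quartile factors and 4 in DESeq2, with 2 fallen in each. The retinaldehyde dehydrogenase ALDH1A3 had 176 and 196 in the CSB knockdown, 108 and 131 in the CSA knockdown, against 83.6 and 73.3 in the control (1.24 ± 0.14 in the CSB knockdown, adjusted p = 5.83e-05). ALDH1A2 (1.11 ± 0.32) and the retinoic acid carrier CRABP2 (1.04 ± 0.07) rose as well in the CSB knockdown. In the CSA knockdown the retinol dehydrogenase RDH10 (-1.20 ± 0.08) and the carrier CRABP1 (-1.05 ± 0.09) fell and NR2F1 rose (0.73 ± 0.07). NR2F1 rose in the CSB knockdown as well (0.31 ± 0.07). ALDH1A3 also rose in the CSA knockdown (0.60 ± 0.14), while CRABP2 fell there (-0.33 ± 0.07). CYP26A1, which degrades retinoic acid and is a common readout of its signal, had at most 2 reads in any library. Of 9 other upstream regulators, 3 rose and 1 fell in the CSB knockdown and 1 rose and 6 fell in the CSA knockdown. TRIM24, a chromatin reader and coregulator of retinoic acid receptors, had 6433 and 6454 in the CSB knockdown, 2998 and 3035 in the CSA knockdown, against 4297 and 4107 in the control. It rose in the CSB knockdown (0.62 ± 0.05, adjusted p = 2.56e-06) and fell in the CSA knockdown (-0.48 ± 0.05, adjusted p = 2.02e-05).

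HOX genes were not the only homeobox genes of their class that differed. Of 22 other ANTP-class homeobox genes tested, 7 rose and none fell in the CSB knockdown, and none rose and 6 fell in the CSA knockdown, by limma. Over all genes limma called 14.8% up and 8.86% down in the CSB knockdown, and 8.37% up and 10.4% down in the CSA knockdown. At an unadjusted p below 0.05 the numbers were 11 up and 0 down in the CSB knockdown and 0 up and 10 down in the CSA knockdown. By edgeR they were 8 up and 0 down in the CSB knockdown and 0 up and 6 down in the CSA knockdown, and by DESeq2 5 up and 0 down in the CSB knockdown and 0 up and 5 down in the CSA knockdown. Over all 28388 genes, edgeR called 3644 up and 3624 down in the CSB knockdown, and 3068 up and 3051 down in the CSA knockdown. DESeq2 called 2212 up and 2880 down in the CSB knockdown, and 1774 up and 2338 down in the CSA knockdown. No share over all genes is given at an unadjusted p. With TMM factors 6 rose in the CSB knockdown and 7 fell in the CSA knockdown. DLX3 had 25.3 and 27.2 in the CSB knockdown, 6.50 and 5.72 in the CSA knockdown, against 2.98 and 2.89 in the control (2.79 ± 0.43, adjusted p = 0.000494 in the CSB knockdown). HLX (1.40 ± 0.14), TLX1 (1.00 ± 0.23) and LBX2 (0.80 ± 0.13) rose too in the CSB knockdown. MSX2, a neural crest factor, had 938 and 879 in the CSB knockdown, 111 and 107 in the CSA knockdown, against 515 and 547 in the control. It fell in the CSA knockdown (-2.28 ± 0.08, adjusted p = 6.84e-09), as did DLX5 (-1.74 ± 0.15) and HHEX (-0.91 ± 0.20). Of 15 genes linked to HOX proteins in other systems, 5 rose and 3 fell in the CSB knockdown and 2 rose and 6 fell in the CSA knockdown. The neurotrophin receptor NGFR had 1358 and 1515 in the CSB knockdown, 47.7 and 62.0 in the CSA knockdown, against 116 and 102 in the control (3.70 ± 0.13, adjusted p = 1.13e-08 in the CSB knockdown, and -0.99 ± 0.13, adjusted p = 0.000201 in the CSA knockdown). RET, a receptor of GDNF ligands, fell in the CSB knockdown (-0.69 ± 0.05) and rose in the CSA knockdown (0.72 ± 0.05).

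Fibroblast and stroma markers differed between the groups in both directions. Of 9 tested, 5 rose and 1 fell in the CSB knockdown, and 0 rose and 4 fell in the CSA knockdown, by limma (1 up and 5 down there at an unadjusted p below 0.05, 1 up and 3 down by edgeR, 0 up and 3 down by DESeq2). The limma shares over all genes were 14.8% up and 8.86% down in the CSB knockdown, and 8.37% up and 10.4% down in the CSA knockdown. DCN, a matrix proteoglycan with the largest rise of the list in the CSB knockdown (2.23 ± 0.12), had 783 and 683 in the CSB knockdown, 139 and 112 in the CSA knockdown, against 165 and 147 in the control. THY1, a surface glycoprotein that neurons also carry, fell in the CSB knockdown, with 1126 and 1088 there, 1593 and 1549 in the CSA knockdown, against 1643 and 1677 in the control (-0.58 ± 0.05, adjusted p = 9.37e-06). COL3A1, a fibrillar collagen, had 7598 and 8365 in the CSB knockdown, 4201 and 3819 in the CSA knockdown, against 7693 and 7483 in the control. It was not called in the CSB knockdown (0.07 ± 0.06, adjusted p = 0.464) and fell in the CSA knockdown (-0.92 ± 0.06, adjusted p = 7.9e-07), and POSTN had no entry in any library. Their part in the HOXC and HOXD results was not tested. Epithelial markers summed to 285 to 297 in the CSB knockdown, 320 to 322 in the CSA knockdown and 309 to 315 in the control. Within these sums single genes moved: KRT19 fell in the CSB knockdown (-1.68 ± 0.18, adjusted p = 3.78e-05), while in the CSA knockdown KRT18 fell (-1.71 ± 0.19, adjusted p = 5.63e-05) and CLDN4 rose (0.67 ± 0.14, adjusted p = 0.00518). Blood and endothelial markers other than HBB were at most 20.3. The mitochondrial share of reads was 5.73% and 5.81% in the CSB knockdown, 6.51% and 6.24% in the CSA knockdown, against 6.28% and 6.32% in the control.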

How the data were processed

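RNA of 6 SH-SY5Y libraries, 2 per group, was sequenced as paired ends after a TruSeq preparation from 1 µg, per the labels' protocols. The submitters' processing notes name FastQC, HISAT2 2.0.4 and hg38; how reads were counted, with which strand setting and annotation, and how they were normalized was not stated there or in the labels. Deposited values are a signal per gene under the heading FPKM, yet gene length has no part in them: every value was a whole multiple (tolerance 0.01) of 1 step per library in 100% of genes, that is, a read count divided by a size factor, called a scaled count here. Recovered reads came to 19368272 to 26758162 per library.

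The 28388 of 32575 genes that reached a group mean of 1 scaled count or more were fitted with limma 3.58.1 (R 4.3.3) on log2(scaled count + 1) over all 3 groups (3 residual degrees of freedom), with Benjamini-Hochberg adjustment over all genes tested and a threshold of 0.05. A fold change on this scale understates that of low genes. limma was kept as the test because the deposited values are not counts; edgeR 4.0.16 and DESeq2 1.42.0 were run on recovered reads as alternatives, beside other pseudocounts, filters, TMM and upper-quartile factors, 2-group fits, a replicate block and leaving out each library. The fit was also run on simulated counts, with an outcome not reported here. Only well-measured genes were changed in them, so that run does not cover the low HOX members. Levels between genes were compared per kilobase of the deposited gene length. Read floors are 3 reads per library.

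The members and the gene lists were chosen with earlier results of these data known. Every HOX member is accounted for by name, those called or with a mean of at least 10 with their value in each library. From each companion list at most the 4 called genes with the largest fold change are named (some are not reported here), and DCN, THY1, COL3A1, KRT18, KRT19, CLDN4, CYP26A1, HBB, POSTN and TH were named after their values were seen.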

Additional observations from a re-analysis of the deposited data

How the results depend on the processing

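HOX genes risen in the CSA knockdown against control numbered 0 in place of 1 with no filter on low values, in DESeq2, with only the 2 groups in the fit, with the replicate block and with any library left out (0 to 0). HOX genes fallen there numbered 1 in place of 0 with a pseudocount of 0.5 (HOXC10, adjusted p = 0.0322) and 0 to 1 with a library left out. In the CSB knockdown against control, 3 rose in DESeq2 in place of 6, and DESeq2 gave no adjusted p for HOXC8, HOXC10, HOXC11, HOXD1 and HOXD11. With a library left out, 0 to 5 rose in place of 6, and 0 to 3 fell in place of 4. In the CSB knockdown against the CSA knockdown, 5 fell in place of 3 with a filter at a mean of 10 and in edgeR (HOXD3 and HOXD4 added), and with a library left out 5 to 7 rose and 1 to 3 fell. Over all genes, leaving out a library gave 1126 to 3306 calls in place of 5334 for the CSA knockdown, 1773 to 5961 in place of 6706 for the CSB knockdown and 4384 to 6223 in place of 8340 between the knockdowns. These fits have fewer samples, and a lone library was assumed to vary like the other groups.

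Log2 fold changes of uncalled genes changed sign with a library left out. For the CSA knockdown against control, HOXC6 ranged from -0.32 to 0.0394 (highest without CSA knockdown replicate 1), HOXD1 from -0.30 (without CSA knockdown replicate 1; -0.0916 without control replicate 2) to 0.46, HOXD3 from -0.12 (without control replicate 1; -0.11 without CSA knockdown replicate 1) to 0.26, HOXD9 from -0.0313 (without CSA knockdown replicate 2) to 0.20, HOXD10 from -0.32 to 0.0552 (without control replicate 2) and HOXD11 from -0.24 (without control replicate 1; -0.0558 without CSA knockdown replicate 2) to 0.30. For the CSB knockdown against control, HOXD1 ranged from -0.27 to 0.11 (without CSB knockdown replicate 2; 0.0916 without control replicate 1) and HOXD13 from -0.10 to 0.0388 (without CSB knockdown replicate 2; 0.0386 without control replicate 1). Between the knockdowns HOXD1 ranged from -0.54 to 0.22 (without CSA knockdown replicate 1; 0.0355 without CSB knockdown replicate 2). The cause was not tested.

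Same-numbered libraries did not deviate together (r = -0.0402, -0.0323 and -0.0316 over 13397 genes), so no pairing by number was seen. That cannot exclude that same-numbered libraries were prepared together. With the replicate block, 5259, 6575 and 8258 genes were called for the CSA knockdown, the CSB knockdown and between them, and HOXD8 in the CSA knockdown had an adjusted p of 0.0643.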
